A study of Homo sapiens with 4 samples.

Results

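The regions described here are H3K27ac peaks that 3 cancer cell lines shared and that the list of SKOV-3 did not hold. They were chosen by presence and absence in the deposited peak lists. An OVCAR-3 peak is a member when it overlaps by at least 1 base a peak of COLO-205 and a peak of DU-145, and overlaps no SKOV-3 peak. Of 76093 OVCAR-3 peaks, 4233 met the rule (5.56%). They are 45% of the 9411 OVCAR-3 peaks that were shared with COLO-205 and DU-145 (exact Clopper-Pearson 95% interval 44% to 46.0%), and the remaining 5178 peaks overlapped a SKOV-3 peak as well. A peak missing in SKOV-3 is one that did not pass the peak caller's threshold in that library, which is not the same as an absence of acetylation.

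The series holds 1 ChIP-seq library for each of COLO-205, a colon cancer line, DU-145, a prostate cancer line, and OVCAR-3 and SKOV-3, ovarian cancer lines. All are established human lines for which the labels give no treatment, and were precipitated with the same antibody. The culture medium differed between them, with RPMI for COLO-205 and OVCAR-3, Eagle minimal essential medium for DU-145 and McCoy's 5a for SKOV-3, each with FBS, so line, medium and library cannot be told apart. There are no replicates, no difference was tested, and the intervals cover counting error only. In a bulk library of this kind, a mark on fewer cells and a weaker mark in each cell cannot be told apart either.

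H3K27ac is the acetylation of lysine 27 of histone H3. It is laid down by the acetyltransferases EP300 and CREBBP, removed by histone deacetylases, and found on the nucleosomes that flank active promoters and enhancers. Promoters of widely used genes carry it in most cell types, whereas enhancers carry it in a more cell-type-specific way. Peaks shared between unrelated tissues are often at promoters.

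The lists differ in length and depth, and this bears on every count below. The list of SKOV-3 has 14001 peaks, against 85576 for COLO-205, 76093 for OVCAR-3 and 75468 for DU-145. The number of ChIP tags recovered from the lists was 22400000 in SKOV-3 and 29800000 to 36000000 in the others. The lowest −log10 p in the list was 5.48 in SKOV-3 and 4.71 to 4.81 in the others, since the caller's q threshold of 0.001 falls at a different p in each library. The SKOV-3 library thus had the fewest tags, the strictest p and the shortest list, and their part in the missing peaks was not tested beyond the alternative settings given in the closing section.

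Marker promoters, where a peak lay within 1 kb of a transcription start, gave a mixed picture of the lines' labels. Of the colon markers, CDX2 and VIL1 had a peak in COLO-205 alone and LGALS4 one in COLO-205, DU-145 and OVCAR-3. Of the prostate markers, KLK3 had one in COLO-205 and HOXB13 one in OVCAR-3. Of the ovarian markers, PAX8, a factor of the Müllerian tract, had a peak in all 4 lines, WT1 and EMX2 had one in COLO-205 and OVCAR-3, and MUC16 one in DU-145 and OVCAR-3, with none of these 3 marked in SKOV-3. EPCAM and CDH1, which define epithelial cells, had peaks in COLO-205, DU-145 and OVCAR-3 and none in SKOV-3, while the keratin genes KRT8 and KRT18 had peaks in all 4. Of the mesenchymal markers, VIM had a peak in DU-145 and SKOV-3 and ZEB1 one in all 4 lines. CDH17, SNAI2 and CDH2 had none in any list.

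To show what such regions look like, the 200 bases around the OVCAR-3 summit are given for 7 of the strongest members, 3 at promoters and 4 away from every annotated start. They are the first in each ranking whose window overlaps no annotated exon. The sequence is that of the GRCh37 plus strand, 5′ to 3′, and capitals mark a match to any of 14 short motifs on either strand.
CDC42EP1 promoter, chr22:37956674-37956873: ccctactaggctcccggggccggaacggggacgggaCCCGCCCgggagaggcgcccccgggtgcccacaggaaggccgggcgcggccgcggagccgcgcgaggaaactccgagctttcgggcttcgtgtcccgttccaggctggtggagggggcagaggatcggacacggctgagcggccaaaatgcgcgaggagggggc
ZFP62 promoter, chr5:180288632-180288831: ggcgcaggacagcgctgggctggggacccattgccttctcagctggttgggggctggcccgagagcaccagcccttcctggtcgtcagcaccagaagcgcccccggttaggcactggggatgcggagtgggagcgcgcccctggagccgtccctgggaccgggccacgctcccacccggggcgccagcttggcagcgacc
CYSRT1 promoter, chr9:140118223-140118422: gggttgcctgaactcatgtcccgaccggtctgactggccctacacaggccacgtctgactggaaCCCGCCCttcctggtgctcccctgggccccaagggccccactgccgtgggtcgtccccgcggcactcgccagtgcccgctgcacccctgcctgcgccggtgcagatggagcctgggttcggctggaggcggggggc
PTMA distal, chr2:232546089-232546288: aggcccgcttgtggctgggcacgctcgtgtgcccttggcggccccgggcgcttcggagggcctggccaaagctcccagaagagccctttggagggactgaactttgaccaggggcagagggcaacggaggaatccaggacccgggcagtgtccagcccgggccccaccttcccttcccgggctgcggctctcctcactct
H3-3A distal, chr1:226309796-226309995: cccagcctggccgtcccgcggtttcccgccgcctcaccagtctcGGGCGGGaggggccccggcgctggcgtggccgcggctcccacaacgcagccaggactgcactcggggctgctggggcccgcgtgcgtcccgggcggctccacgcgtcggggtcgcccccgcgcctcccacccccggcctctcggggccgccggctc
SIK1 distal, chr21:44816564-44816763: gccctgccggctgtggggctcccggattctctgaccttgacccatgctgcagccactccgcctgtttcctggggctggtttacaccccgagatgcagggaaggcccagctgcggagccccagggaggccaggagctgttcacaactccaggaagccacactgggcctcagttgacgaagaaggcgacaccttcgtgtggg
SLC25A29 distal, chr14:100751847-100752046: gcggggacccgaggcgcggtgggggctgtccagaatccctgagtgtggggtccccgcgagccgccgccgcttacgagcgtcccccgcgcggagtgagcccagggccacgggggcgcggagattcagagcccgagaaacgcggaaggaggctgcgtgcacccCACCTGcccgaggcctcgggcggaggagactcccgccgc
For AP-1 the letters searched were TGANTCA, for the cAMP response element CRE they were TGACGTNA, and for ETS factors CCGGAAG. The GC box, bound by SP and KLF proteins, was searched as GGGCGGG, the CCAAT motif bound by NFY as CCAATNNG, the core of NRF1 as GCGCATG and that of YY1 as AAGATGG. The E-box bound by ZEB and SNAI proteins was searched as CAGGTG, the TEAD motif as GGAATG, that of FOXA as TGTTTAC, that of GATA factors as AGATAA and that of RUNX as TGTGGTT. The core of the CTCF motif was searched as CCACNAGG, and the TATA box as TATAAA. Of the 7 windows, 3 held a GC box, 1 held the ZEB E-box and 3 held no match. Their GC content lay between 64.5% and 81.5%, and each held 8 to 29 CpG dinucleotides. A match is a description of the letters and not evidence of binding.

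Over all members with a sequence, the windows were GC-rich, as promoter sequence is, but less so than those of the peaks of all 4 lines. The median GC content was 66.5% for the members, 71.5% for peaks of all 4 lines and 56.5% for all OVCAR-3 peaks. At promoters the medians were 70% for members and 72.5% for peaks of all 4 lines, and elsewhere 59.5% and 63%. The ratio of observed to expected CpG had a median of 0.798 at member promoters, 0.847 at promoters with a peak of all 4 lines and 0.745 at all OVCAR-3 promoter peaks. Among shared promoter peaks, the share missing in SKOV-3 was 57.0% (155 of 272) where this ratio was under 0.4 and 32.4% (1333 of 4108) where it was over 0.8. The CpG-poor promoters also had weaker peaks, with a median lowest −log10 q over the 3 lines of 9.14 against 12.8, and the part of strength in this difference was not tested.

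Of the 14 motifs, 4 had intervals at promoters that did not overlap between members and peaks of all 4 lines, namely the ETS run, the GC box, YY1 and the ZEB E-box. Away from promoters the intervals were apart for the GC box and the ZEB E-box only. The GC box was in 27.1% of the 2709 member promoter windows (25.5% to 28.8%), in 32.8% of the 4503 promoter windows of all 4 lines (31.4% to 34.1%) and in 23.2% of all 17902 OVCAR-3 promoter windows. The ETS run was in 4.28% of member promoter windows, against 6.08% for all 4 lines and 4.15% for all OVCAR-3 promoter windows, and YY1 in 1.96% against 3.18% and 2.73%. Both classes of factor are known at promoters of widely used genes. The ZEB E-box was in 20.1% of member promoter windows (18.6% to 21.7%), in 13.9% of those of all 4 lines (12.9% to 14.9%) and in 19.8% of all OVCAR-3 promoter windows. Away from promoters it was in 30.1% of 1524 member windows, 24.0% of 675 windows of all 4 lines and 35.7% of 58189 OVCAR-3 windows. The member windows thus lay between the peaks of all 4 lines and the OVCAR-3 peaks at large for the GC box, and for the E-box away from promoters. At promoters their E-box share was close to that of all OVCAR-3 peaks. The part of base composition in these shares was not tested.

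Missing peaks were weaker than the peaks of all 4 lines, in each line that had them. The median fold enrichment over local background of the members in OVCAR-3 was 5.88 (quartiles 4.41 to 8.19), against 9.43 (6.63 to 13) for peaks of all 4 lines. In DU-145 the medians were 4.43 and 5.20, and in COLO-205 they were 4.13 and 4.69. Against the whole list the members had a higher median −log10 q in each line, at 9.86 against 8.35 in COLO-205, 16.7 against 9.17 in DU-145 and 24.0 against 11.0 in OVCAR-3. The median fold of the whole list was 4.73 in COLO-205 and 4.50 in DU-145, above the members, and 5.37 in OVCAR-3, below them. Members were below the peaks of all 4 lines in −log10 q in each of the 3 lines too, as the plot of peak strength shows. A fold or q is computed within a library, so these values compare members with other peaks of the same list and not lines with each other.

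**Figure D1:**
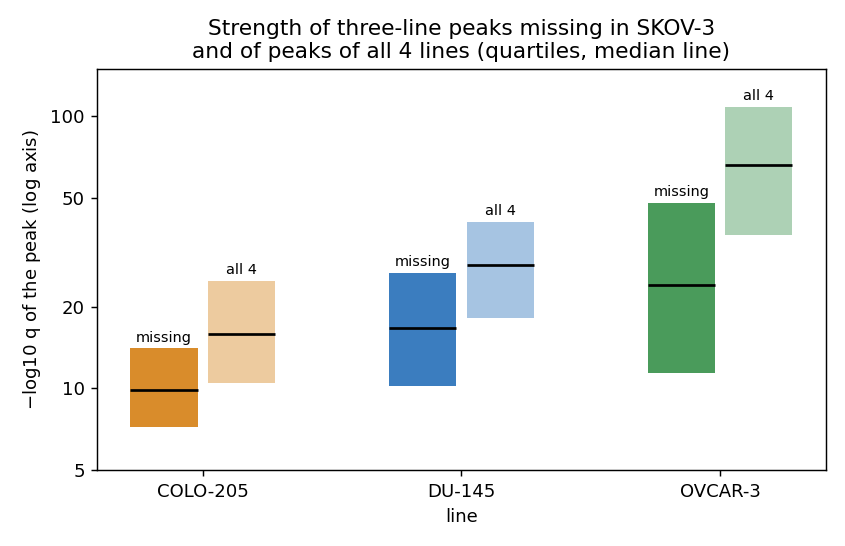
The −log10 q of shared peaks on a log axis in COLO-205, DU-145 and OVCAR-3, for members missing in SKOV-3 (dark) and peaks of all 4 lines (pale), with bars from the lower to the upper quartile and a line at the median. The median was 9.86 against 15.9 in COLO-205, 16.7 against 28.4 in DU-145 and 24.0 against 66.4 in OVCAR-3.

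The lowest of a member's 3 −log10 q values is used below to class and rank members, and a q value also depends on the depth of its library. It came from COLO-205 at 2709 of the 4233 members (64.0%), from DU-145 at 930 and from OVCAR-3 at 594. Across members, the Spearman correlation of −log10 q was 0.30 between OVCAR-3 and DU-145, 0.29 between OVCAR-3 and COLO-205 and 0.17 between COLO-205 and DU-145 (n = 4233 regions, which share base composition and position and are not independent). A strong member in one line was thus often a modest one in another. Few members were strong in all 3 lines, with 1529 at a −log10 q of at least 10 in each, 207 at 20 and 26 at 30.

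With increasing strength a shared peak was missing in SKOV-3 less often. Among shared peaks whose lowest −log10 q over the 3 lines was 3 to 5, 76.2% were missing in SKOV-3 (343 of 450, 72.0% to 80.1%). The share was 36.4% at 10 to 20 (1322 of 3627), 5.36% at 30 to 50 (26 of 485), and 0 of 44 peaks over 50, which allows a share of up to 8.04%. Within each class up to 30 to 50 the share was lower at promoters than elsewhere, and the intervals of the promoter and other peaks did not overlap in the classes from 3 to 30. The plot by strength class shows this fall in both kinds of region.

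**Figure D2:**
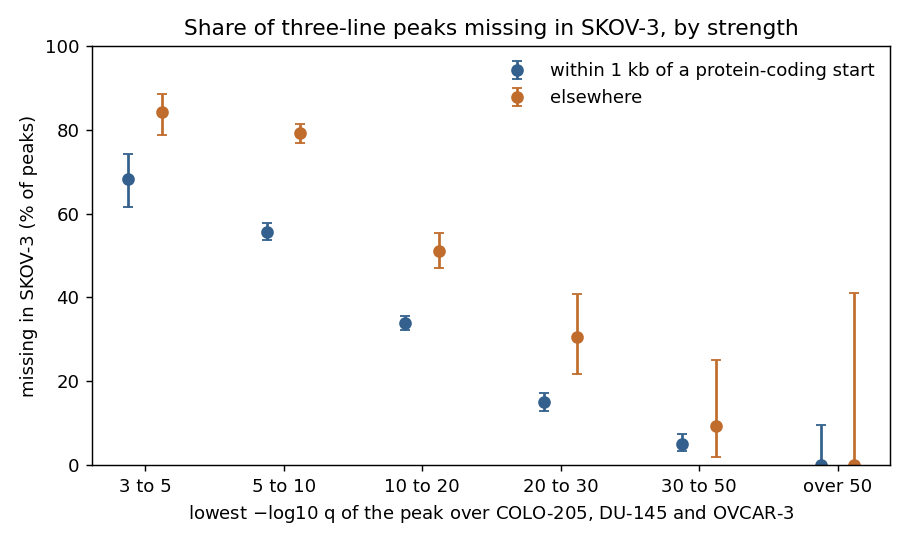
Share of the OVCAR-3 peaks shared with COLO-205 and DU-145 that was missing in SKOV-3 (%), by the lowest −log10 q of the peak over the 3 lines, for peaks at most 1 kb from the start of a coding gene (blue) and elsewhere (orange). Bars are exact 95% intervals for counting error, and at 10 to 20 the shares were 33.8% at promoters and 51.2% elsewhere.

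The members lay mostly at promoters, but less so than the peaks that SKOV-3 had too. Within 1 kb of a protein-coding start lay 2709 members (64.0%, 62.5% to 65.4%), against 87.0% of the peaks of all 4 lines and 23.5% of all OVCAR-3 peaks. A further 387 members lay at the start of another kind of transcript, 688 in introns, 362 in intergenic sequence and 87 in exons. Turned round, the share of shared peaks missing in SKOV-3 was 37.6% at coding promoters (2709 of 7212), 59.4% at other starts (387 of 651), 66.8% between genes (362 of 542) and 77.2% in introns (688 of 891). Intronic and intergenic peaks are where most enhancers lie.

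Most members stood far from any SKOV-3 peak. The rule excludes overlaps, the SKOV-3 list is short, and no distance of other peaks is given beside these values. The median distance to the nearest was 40232 bases (quartiles 8208 to 135148), and 3374 members (79.7%) were over 5 kb away. Only 562 (13.3%) were within 1 kb of a SKOV-3 peak. Near the limit of the rule, 13 members lay within 100 bases of a SKOV-3 peak, with a median OVCAR-3 fold of 4.06 and −log10 q of 10.3, and 3 peaks of all 4 lines overlapped theirs by 50 bases or less, with 3.33 and 5.50. Joining members under 5 kb apart left 3693 loci.

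The other lines had lower missing shares by a similar count, and the order changed when the lists were made equally long. Their counts take only OVCAR-3 peaks that overlap a peak of SKOV-3, whose full list is short. At full list length they are therefore not directly comparable with the SKOV-3 share. Of the OVCAR-3 peaks shared with DU-145 and SKOV-3, 27.5% were missing in COLO-205 (1963 of 7141), and of those shared with COLO-205 and SKOV-3, 8.11% were missing in DU-145 (457 of 5635). When each list was reduced to its 14001 peaks of highest −log10 q, the missing share was 15.9% for SKOV-3 (431 of 2714, 14.5% to 17.3%), 16.5% for DU-145 (450 of 2733, 15.1% to 17.9%) and 43.7% for COLO-205 (1770 of 4053, 42.1% to 45.2%). At equal list length SKOV-3 thus no longer had the highest share. When pileup and background were scaled to the SKOV-3 tag number and, together with this, peaks were held to the SKOV-3 p limit, 3608 members (85.2%) would still have passed in all 3 lines. Of all 9411 shared peaks, 8551 remained under this setting, so members were lost more often than shared peaks as a whole. Of the whole lists, 92.0% passed in COLO-205, 82.2% in DU-145 and 88.7% in OVCAR-3. The part of depth in the missing peaks was not tested further.

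Chromosome 7 stood apart from all others. Of the 318 shared peaks on it, 275 were missing in SKOV-3 (86.5%, 82.2% to 90.0%), against 43.5% on the other chromosomes together (3958 of 9093, 42.5% to 44.6%). The next highest share was 55.7% on chromosome 17 (443 of 795), and the lowest was 14.7% on chromosome 18 (16 of 109). On chromosome 7, 3 of 46 peaks were missing in COLO-205 (6.52%, 1.37% to 17.9%) and 2 of 45 in DU-145 (4.44%, 0.54% to 15.1%), as the plot by chromosome shows. These counts take only peaks that overlap one of the few SKOV-3 peaks of the chromosome, so they are not comparable with the SKOV-3 share.

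**Figure D3:**
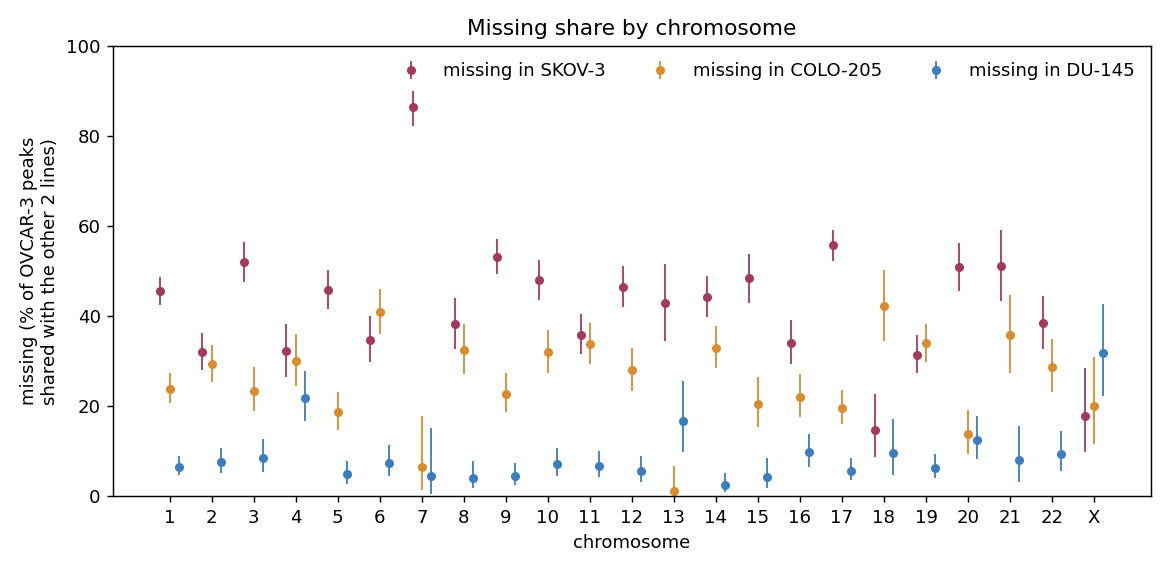
Share of OVCAR-3 peaks shared with the other 2 lines that was missing in SKOV-3 (red), COLO-205 (orange) or DU-145 (blue), in % by chromosome, with exact 95% intervals for counting error. SKOV-3 reached 86.5% on chromosome 7, where COLO-205 had 6.52% (3 of 46) and DU-145 4.44% (2 of 45), both among peaks that overlap a SKOV-3 peak.

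The chromosome 7 peaks were not weaker than others in the lines that had them. Their median lowest −log10 q was 11.2, against 10.9 elsewhere, and among shared peaks of at least 10 in all 3 lines 78.0% were missing on chromosome 7 (142 of 182), against 27.3% elsewhere (1387 of 5083). At 20 or more the shares were 44.4% (20 of 45, 29.6% to 60.0%) and 11.7% (187 of 1593, 10.2% to 13.4%). With lists of equal length the share was 60.7% on chromosome 7 (54 of 89) and 14.4% elsewhere. The difference of chromosome 7 from the rest was seen at both strength limits and at equal list length.

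The whole SKOV-3 list was sparse on chromosome 7. It held 65 peaks there, or 0.464% of the list and 0.408 per Mb, which was 0.0819 of the median density of the other chromosomes, where the lowest was 1.28 per Mb. The same ratio was 0.416 in COLO-205, 0.433 in OVCAR-3 and 0.652 in DU-145. The longest stretch without a peak was 23.4 Mb in SKOV-3 and 4.34 to 5.79 Mb in the other lines. Of the 65 SKOV-3 peaks on the chromosome, 69.2% overlapped a peak in each of the other lines, against 40.4% of SKOV-3 peaks elsewhere, so those that were called were mostly common ones.

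At the 43 chromosome 7 peaks present in all 4 lines, which SKOV-3 had to call, its enrichment was lower than at such peaks elsewhere. The median fold was 4.56 there and 5.34 on the other chromosomes, with a median pileup of 35 and 40 tags. In the other lines the median fold was higher on chromosome 7, at 6.06 against 4.68 in COLO-205, 5.79 against 5.19 in DU-145 and 10.2 against 9.42 in OVCAR-3. Requiring a SKOV-3 peak left out 86.5% of the shared peaks on chromosome 7 (275 of 318) and 43.5% of those elsewhere (3958 of 9093). The peaks kept on chromosome 7 were thus the more strictly selected. The part of this selection in the values at these peaks, in any line, was not tested. Over whole lists the median fold was lower on chromosome 7 than elsewhere in SKOV-3 (4.54 and 5.35), in COLO-205 (4.21 and 4.74) and in DU-145 (4.23 and 4.52), and slightly higher in OVCAR-3 (5.50 and 5.36). The whole SKOV-3 list had a median pileup of 33 tags on chromosome 7 and 30 elsewhere, with a background of 6.53 and 4.95. Whole-list pileup was 24 and 24 in COLO-205, 30 and 27 in DU-145 and 40 and 27 in OVCAR-3. The local background at these peaks was slightly higher on chromosome 7 in every line. It was 7.07 tags on chromosome 7 and 6.66 elsewhere in SKOV-3, and 10.3 and 9.74 in COLO-205. The values were 15.2 and 13.9 in DU-145 and 11.5 and 10.6 in OVCAR-3. The part of background and pileup in the missing peaks of this chromosome was not tested, nor was that of DNA copy number, which was not analysed here.

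The missing share was high in each stretch of the chromosome that held enough shared peaks to be scored. Among the 159 windows of 10 Mb with at least 20 shared peaks, the median share missing was 45.3%, and 16 windows reached 75%. All 9 chromosome 7 windows with that many shared peaks were among these 16, and the rest of the chromosome was not scored. The others lay on chromosome 1 at 140 to 150 Mb (83.9%, 26 of 31), chromosome 3 at 40 to 50 Mb (78.0%, 32 of 41), chromosome 10 at 90 to 100 Mb (80.0%, 36 of 45) and 100 to 110 Mb (79.0%, 49 of 62), chromosome 12 at 0 to 10 Mb (81.0%, 34 of 42), and chromosome 17 at 0 to 10 Mb (80.0%, 92 of 115) and 10 to 20 Mb (75.8%, 25 of 33). At the other end, none of the 20 shared peaks on chromosome 6 at 150 to 160 Mb was missing in SKOV-3, which allows a share of up to 16.8%. The missing peaks were thus uneven along the genome beyond chromosome 7 as well.

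Runs of shared peaks in which no peak was found in SKOV-3 give the same picture in genes. The longest run had 41 consecutive members on chr7:100075365-128171248, over 28.1 Mb with 35 promoter peaks and 3 SKOV-3 peaks elsewhere in the stretch. It held the promoters of CUX1, a homeodomain repressor, KMT2E, a member of the histone methyltransferase family, EPHB4, an ephrin receptor kinase, NAMPT, which makes a precursor of NAD, and ING3, a subunit of the NuA4 acetyltransferase. The second had 29 members on chr10:99093243-102792119 with the promoters of NDUFB8, PGAM1 and GOT1, genes of respiration, glycolysis and aspartate metabolism. The third to the fifth were on chromosome 7, with 26, 20 and 19 members. They held CDK6, a kinase of the G1 phase, HSPB1, a small heat-shock protein, EGFR, the receptor of epidermal growth factor, GRB10, an adaptor of the insulin receptor, ITGB8, an integrin, and CYCS, which encodes cytochrome c. Of the 27 runs of 10 or more members, 10 were on chromosome 7.

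Counted by gene, 2143 of 19794 protein-coding genes (10.8%) had a member and no SKOV-3 peak at a promoter, and 4837 (24.4%) had a peak of all 4 lines. For 2063 of the 2143 no SKOV-3 peak lay within 5 kb of a start. Of the 7236 genes marked in COLO-205, DU-145 and OVCAR-3, 2399 (33.2%, 32.1% to 34.3%) were not marked in SKOV-3. On chromosome 7 these were 220 of 265 genes (83.0%, 77.9% to 87.3%).

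The 12 strongest promoter members with no SKOV-3 peak within 5 kb, ranked by the lowest −log10 q over the 3 lines, came from 7 chromosomes. SYNGR2, a protein of vesicle membranes, led with a fold of 7.99 in COLO-205, 6.86 in DU-145 and 16.1 in OVCAR-3, in a peak at chr17:76164125-76166459. The nearest SKOV-3 peak was 43905 bases away. CDKN2A followed, which encodes the CDK4 and CDK6 inhibitor p16 and, from a start further upstream, the protein ARF. Its peak at chr9:21993375-21996321 covered that upstream start, at 21994391, and not the start of p16, with a fold of 11.4 in COLO-205, 10.7 in DU-145 and 28.2 in OVCAR-3 and a −log10 q of 39.8, 46.4 and 173. It was the highest fold of the 12 in OVCAR-3. Between the flanking SKOV-3 peaks lay 4117 kb that held 29 peaks of COLO-205, 25 of DU-145 and 48 of OVCAR-3, and 10 members, among them CDKN2B, which encodes the related inhibitor p15.

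The remaining promoters of this ranking are given by their fold in COLO-205, DU-145 and OVCAR-3, each relative to the background of its own library. SAYSD1 had 12.8, 7.30 and 6.92, and SLC12A7, a potassium chloride cotransporter, 6.61, 7.67 and 6.40. CDC42EP1, an effector of the GTPase CDC42, had 10.8, 8.09 and 13.7, and ELP5, a subunit of the Elongator complex that shares its promoter with CTDNEP1, had 8.56, 11.1 and 16.1. Every promoter of the ranking had a fold over 5 in each line. BCL7B, a subunit of SWI/SNF complexes on chromosome 7, had 5.83, 5.19 and 9.65. TMEM141, ZFP62, CYSRT1, ZNF518A and AKAP1, an anchor of protein kinase A at mitochondria, lay within 5.68 to 7.81 in COLO-205 and DU-145 and 10.9 to 18.5 in OVCAR-3, as the plot of the 12 promoters shows.

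**Figure D4:**
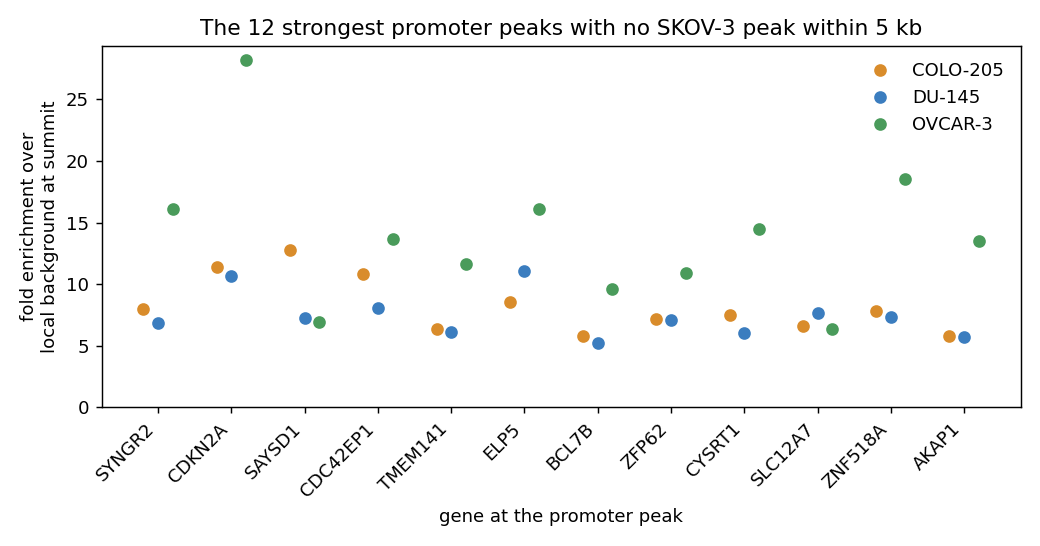
Fold enrichment over local background at the summit (y axis) for the 12 promoter members of highest strength (x axis) in COLO-205 (orange), DU-145 (blue) and OVCAR-3 (green), each from 1 library. The folds ran from 5.19 to 12.8 in COLO-205 and DU-145 and from 6.40 to 28.2, at CDKN2A, in OVCAR-3, and are computed within each library.

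Away from every annotated start lay 1137 members, and 897 of these had no SKOV-3 peak within 5 kb. The strongest, at chr2:232545251-232546550, was 25844 bases from PTMA, the prothymosin alpha gene, with a fold of 7.12 in COLO-205, 5.75 in DU-145 and 9.94 in OVCAR-3. The second, in an exon at chr17:38269688-38270065, was 8159 bases from MSL1, a subunit of a histone H4 acetyltransferase complex, with 8.28, 6.56 and 10.2. A pair of intergenic peaks lay 57711 and 46072 bases from H3-3A, the gene of histone H3.3, at 6.08, 4.70 and 5.28 and at 5.75, 4.31 and 9.03. The nearest gene is only a position, and which promoter such a region acts on was not measured.

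Others in the list were close to genes of varied roles. ELF3, an epithelial ETS factor, had a peak 7513 bases from its start with 6.90, 5.63 and 4.65 in COLO-205, DU-145 and OVCAR-3, besides a member at its promoter with 3.23, 8.66 and 16.9. SDC1, the syndecan of epithelial cells, had a peak 5718 bases away with 6.25, 6.22 and 9.22. A peak in an intron of a long noncoding RNA gene, 8039 bases from the start of SLC25A29, a mitochondrial carrier of basic amino acids, had 5.90, 10.2 and 18.0, the highest OVCAR-3 value of the 12. The remaining peaks were nearest to SIK1, SLC1A3, RALGDS, NKD2 and CCNL1, with folds of 4.55 to 6.98 in COLO-205 and DU-145 and 6.04 to 13.5 in OVCAR-3.

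Genes of the epithelial state formed the group with the second highest share of members among listed genes. Of 44 genes on the list, 18 (40.9%) had a member and no SKOV-3 peak at the promoter, against 10.8% of all coding genes, and 14 had a peak of all 4 lines. Of the 35 marked in COLO-205, DU-145 and OVCAR-3, 21 were not marked in SKOV-3 (60.0%, 42.1% to 76.1%), against 33.2% of all coding genes so marked. The lowest −log10 q over the 3 lines ran from 8.16 at CDS1 to 28.4 at ERBB3 among the 18. The list was chosen with earlier results of these data known, and is no independent evidence.

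The epithelial members covered adhesion, tight junctions and receptors. ERBB3, the neuregulin receptor, had a fold of 7.55 in COLO-205, 4.86 in DU-145 and 12.4 in OVCAR-3. CLDN7, a claudin of tight junctions, had 6.66, 5.14 and 8.42, and MARVELD2, which seals junctions between 3 cells, 5.75, 4.50 and 10.8. CDH1, which encodes E-cadherin, had 6.03, 4.94 and 5.53 in a peak at chr16:68771320-68772177, 29860 bases from the nearest SKOV-3 peak. EPCAM, an epithelial adhesion molecule, had 7.07, 4.21 and 8.49 at chr2:47596060-47597271, 13359 bases from the nearest. KRT7, OCLN, CRB3, CLDN4, GRHL1, ST14, MAPK13, MARVELD3, PKP2, JUP, ELF3, ESRP1 and CDS1 were the others, and of the 18 only CLDN4 was on chromosome 7.

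Genes of the G1 phase had the highest share of listed genes, 11 of 25 (44%), with 12 more marked in all 4 lines and 1 member on chromosome 7. Among those marked in the 3 lines, 11 of 23 lacked SKOV-3 (47.8%, 26.8% to 69.4%), which was below the epithelial list and whose interval includes the 33.2% of all coding genes. After CDKN2A, the strongest were CDKN1B, which encodes the inhibitor p27, RBL1, a relative of RB, and CCNE2, a cyclin E. CDKN1B had a fold of 5.59 in COLO-205, 5.12 in DU-145 and 13.5 in OVCAR-3, RBL1 4.56, 3.56 and 9.92, and CCNE2 3.93, 6.45 and 6.07. The group held activators and inhibitors of the cycle alike, since E2F2, CDK2, CDK6, E2F4, CDKN2B, E2F6 and CDK4 were members too. CDK6 lay in the longest stretch of chromosome 7 without a SKOV-3 peak, which held 94 peaks of COLO-205, 157 of DU-145 and 147 of OVCAR-3.

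Metabolic lists are given beside the 10.8% of all coding genes. Of 36 subunits of respiratory complex I, 11 (30.6%) had a member and no SKOV-3 peak, led by NDUFS6 at 4.31, 5.38 and 7.21 in COLO-205, DU-145 and OVCAR-3, NDUFB8 at 4.83, 4.51 and 7.48 and NDUFA8 at 4.15, 6.06 and 6.07. Of 24 genes of cholesterol synthesis, 7 (29.2%) did, among them FDPS, which makes farnesyl diphosphate, at 3.99, 6.55 and 12.1, HMGCS1, an early enzyme of the pathway, at 3.59, 8.14 and 8.16, LSS, which closes the sterol ring, at 3.90, 5.61 and 12.5, and INSIG1, a sterol sensor, at 3.41, 3.36 and 4.63. Among genes marked in the 3 lines, 11 of 24 complex I genes (45.8%, 25.6% to 67.2%) and 7 of 13 cholesterol genes (53.8%, 25.1% to 80.8%) lacked SKOV-3, and both intervals include the 33.2% of all coding genes. Of 78 cytosolic ribosomal proteins, 16 (20.5%) did, while 45 were marked in all 4 lines. Among those marked in the 3 lines, 17 of 62 ribosomal genes lacked SKOV-3 (27.4%, 16.9% to 40.2%), a share below the 33.2% of all coding genes with an interval that includes it. RPL41 was the strongest at 8.13, 11.7 and 13.4. Glycolysis had 4 of 22 (18.2%), namely TPI1, GPI, GAPDH and PGAM1, and 5 of its 14 genes marked in the 3 lines lacked SKOV-3 (35.7%, 12.8% to 64.9%), near the 33.2% of all coding genes. GAPDH, a common reference gene, had 3.32, 2.53 and 8.26.

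Other lists were near or below the 10.8% of all coding genes. None of the 25 genes of the TGF-beta pathway was a member, and 16 were marked in all 4 lines, so 0 of 16 genes marked in the 3 lines lacked SKOV-3 (up to 20.6%). Of 31 proteasome subunits, PSMC2 alone was a member, on chromosome 7, and 24 were marked in all 4 lines. Among the 25 proteasome genes marked in the 3 lines, 1 lacked SKOV-3 (4.00%, 0.10% to 20.4%), against 33.2% of all coding genes. Histone acetyltransferases, deacetylases and BET readers, which write, erase and read the mark, had NCOA3 and HDAC1 of 26 as members and 16 marked in all 4 lines. SWI/SNF subunits had 3 of 26 (11.5%), BCL7B, SMARCC1 and SMARCA2, and double-strand break repair 3 of 31 (9.68%), XRCC4, RAD52 and LIG4. Among genes marked in the 3 lines, 2 of 18 acetylation genes (11.1%), 4 of 21 SWI/SNF genes (19.0%) and 4 of 19 repair genes (21.1%) lacked SKOV-3. Their intervals include the 33.2% of all coding genes. None of the 388 olfactory receptor genes, which are used mainly in the nose, was a member, and 369 had no peak in any line.

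CLDN7, DVL2, a mediator of WNT signals, and RPL26 lay in the window of chromosome 17 where 80.0% of shared peaks were missing. The remaining lists ranged from 5.88% to 19.2%, beside the 10.8% of all coding genes. Among genes marked in the 3 lines, the share lacking SKOV-3 ran from 11.1% for AP-1 factors to 41.7% for ETS factors (5 of 12). Each interval of these lists includes the 33.2% of all coding genes. ETS factors had 5 of 26, WNT 6 of 33 with LRP5 and CTNNB1 the strongest, Notch 4 of 22, nuclear receptors 5 of 43, the circadian clock 3 of 22, interferon response and HLA class I 3 of 27, SP and Krueppel-like factors 2 of 25, AP-1 factors 1 of 17, the predicted master regulators of these lines 1 of 14, which was ELF3, and ZNF genes 49 of 476.

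**Figure D5:**
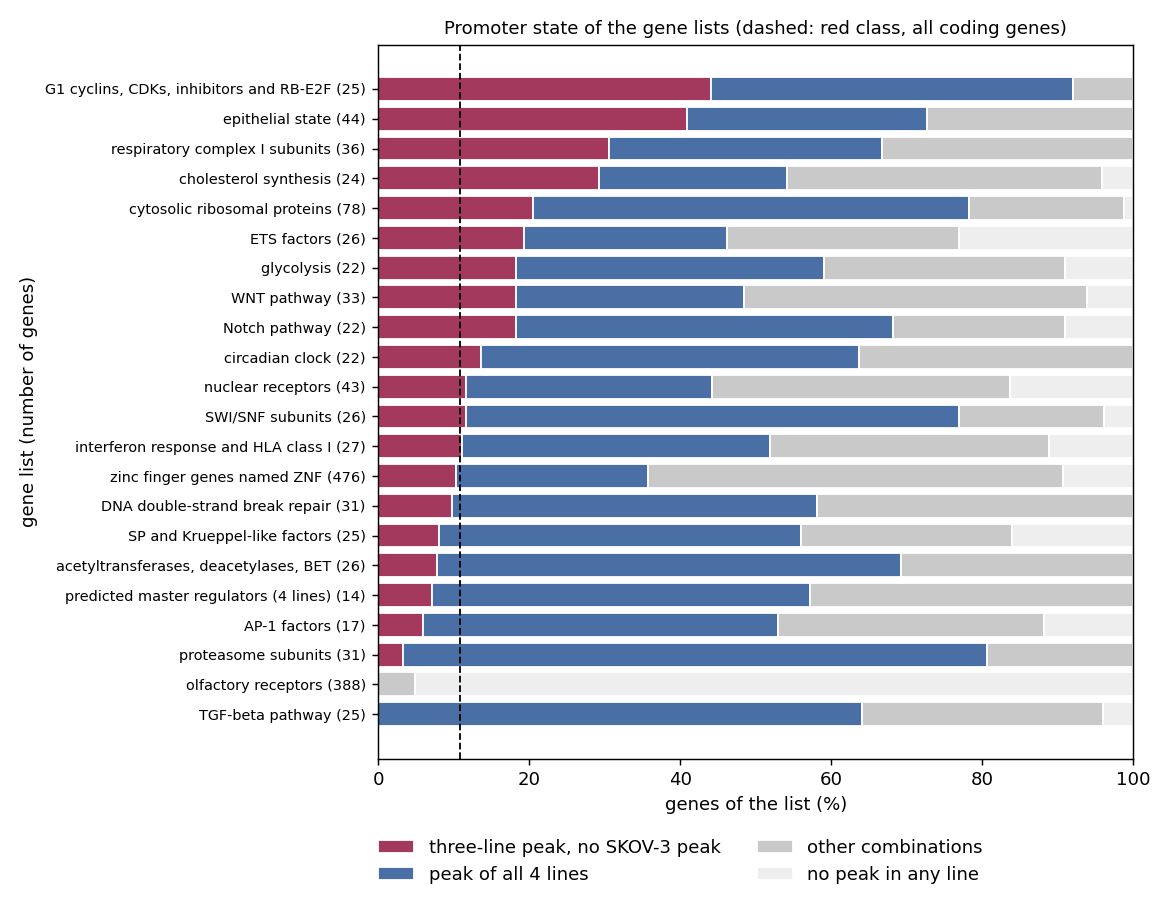
Share of the genes of each list (%) with a member and no SKOV-3 peak at the promoter (red), with a peak of all 4 lines (blue), with another combination (grey) or with no peak (pale), and list sizes in parentheses. The dashed line is the red share of all coding genes, 10.8%, and the G1 and epithelial lists reached 44% and 40.9%.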

How the data were processed

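H3K27ac was measured by ChIP-seq in 4 cell lines, with 1 library each. The authors aligned reads to hg19 and called peaks per library at a q-value of 0.001. The submitters' processing notes name Bowtie2 2.1.0 and MACS2 2.1.0.20150603. The deposited lists give for each peak a fold enrichment over local background (a ratio) and the −log10 of its p and q, both computed by the authors' caller and not scaled between libraries. The summit offset and the position were used as deposited.

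Tag pileup and background were recovered from fold and −log10 p by searching whole-number pileups for the one that gives the deposited p under a Poisson law (tolerance 0.001 in −log10), which succeeded for at least 99.9% of peaks. The ChIP tag number was computed from the lowest background with the smallest peak width and 2700000000 genome positions. Recovery and overlap were checked on simulated data. Overlap meant 1 shared base, a promoter 1 kb on each side of a start in GENCODE 44 lifted to GRCh37, and a sequence window 200 bases. Shares have exact Clopper-Pearson 95% intervals, for counting error only.

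The members and gene lists were chosen with earlier results of these data known. Named peaks are the 12 promoter and 12 distal members with the highest lowest −log10 q over the 3 lines and no SKOV-3 peak within 5 kb, up to 4 genes per list, the 5 longest runs and the marker genes. Other genes were named after their values were seen. The alternatives were other thresholds, overlaps, windows, list lengths and counted lines. The tools were scipy 1.17.1 and numpy 2.4.6 under Python 3.11.15, with pandas 2.3.3 for tables and matplotlib 3.10.9 for plots. Input libraries, variant calls and expression were not analysed here. A few marker and list genes are not reported here.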

Additional observations from a re-analysis of the deposited data

How the results depend on the processing

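The number of members stayed within 1.5 times of 4233 except with a −log10 q of at least 10 required in every list (2304) and with lists of equal length (431). The share of shared peaks missing in SKOV-3 was 43.8% at a −log10 q of 10, 60.4% when 50% of an OVCAR-3 peak had to be covered, 42.0% with neighbours under 350 bases merged, 39.0% and 35.9% with SKOV-3 peaks widened by 1 kb and 5 kb, 15.9% with lists of equal length, 42.2% at the SKOV-3 tag number, 46.4% with COLO-205 peaks counted and 43.5% without chromosome 7. The share of members at promoters was 66.1% at a −log10 q of 5, 82.7% at 10, 73.1% with the 50% overlap, 61.5% with merging, 62.3% with SKOV-3 widened by 1 kb, 84.9% with equal lists, 68.5% at the SKOV-3 tag number, and 60.4% and 68.2% for distances of 500 and 2500 bases. The count of genes was recomputed for other promoter windows, for no SKOV-3 peak within 5 kb, for members with a −log10 q of at least 10 in the 3 lines and without chromosome 7, and of these only the limit of 10 moved it by over 1.5 times, from 2143 to 1035. On chromosome 7 the missing share was 96.8% with the 50% overlap, 81.4% with SKOV-3 widened by 5 kb and 60.7% with equal lists, against 59.1%, 34.3% and 14.4% elsewhere. Shares by chromosome were planned, but chromosome 7 was singled out after the data were seen, and leaving it out, the other settings of its share and the missing shares of COLO-205 and DU-145 at equal list length were added then. Apart from the shorter lists that stricter settings leave, the cause of these moves was not tested.

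No paired analysis was possible because each line has 1 library. With no replicates, no error between cultures can be given. The SKOV-3 library had the fewest tags, and what this limits was not separated from the caller's threshold.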
